A study of Prunus yedoensis with 90 samples.

Results

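Leaves of the Yoshino cherry 'Somei-yoshino' held 150 genes whose transcript level was strongly lower at the end of summer than in June, while their level in buds stayed within a limited range. They were selected on measured values from 95076 gene IDs, of which 35534 had a mean of at least 1 TPM over 24 leaf libraries. TPM is a transcript level scaled for gene length and library total. The selecting value, called the summer difference here, was the log2(TPM + 1) of late summer leaves minus that of June leaves, averaged over 6 trees. It had to be at most -1 and below 0 in each of the 6 trees. The range of the 10 monthly bud means from June to March, on the same scale, had to be under 3. Of the genes tested, 33790 met the bud condition, 1353 of these also reached -1, 896 were lower in every tree, and the 150 with the lowest summer difference were taken. Their summer differences ran from -5.56 to -2.10 with a median of -2.48, and their bud ranges had a median of 2.02. The last gene taken had a summer difference of -2.099 and the first gene left out had -2.096, so the list ends inside a continuous series of values. All 150 entered the fits over all leaves, since those used the same minimum level. Their mean leaf level ran from 1.75 to 250 TPM with a median of 12.4, and 28 of them averaged under 5 TPM.

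The study asked how transcript levels in apical buds and leaves change over the seasons around bud dormancy. Its 24 leaf and 66 bud libraries came from 6 trees, 2 from each of 3 Japanese sites, which from south to north are Fukuoka, Tsukuba and Hokkaido. Leaves were taken on 4 dates in 2018, on 7 June, 4 July, 1 August and 29 August in Fukuoka, on 6 June, 5 July, 7 August and 5 September in Tsukuba, and on 4 June, 9 July, 13 August and 7 September in Hokkaido. The first 3 dates are called June, July and August below, and the last is called late summer. Buds were taken from the same trees on the same dates and on later dates into spring, 11 dates per site in all. No tree was treated. The cultivar is propagated by grafting, so the trees are copies of a single clone. Replicates are separate trees of that clone. Twigs came from sun-exposed crowns around midday, and tissue went into an RNA-stabilizing reagent. Per the labels, leaf RNA and bud RNA were extracted by different methods. Wherever leaf is set against bud, the effects of tissue and of extraction method cannot be told apart.

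A leaf of a deciduous tree begins as a primordium inside a bud and expands in spring by cell division and cell growth. During that time it builds walls and cuticle and assembles its photosynthetic apparatus, and many genes of growth and construction are then turned down as the blade matures. A bud encloses a shoot apex with young leaf or flower primordia under scales, and in cherry it is formed in summer, rests through autumn and winter and resumes growth towards spring. Young leaves and buds therefore share tissues that a mature blade lacks. The deposited files do not pair the gene IDs with names or functions, so the genes are described here by their IDs and levels, and no pathway can be named for them. In bulk tissue, fewer cells of a type and less RNA per cell cannot be told apart, and this holds for every level below.

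The June leaves of Hokkaido stood apart from the other leaves. To describe this, the 100 genes outside the list with the most negative leaf minus bud difference in July and August were summed in every library. They were chosen after their values were seen, so their leaf levels in July and August are low by choice, while June and late summer were not used. In June leaves these genes summed to 30614 TPM in Hokkaido replicate 1, which was 75.9% of the sum in the bud of the same tree and date. They summed to 8840 TPM in Hokkaido replicate 2, or 22.9% of its bud. In the June leaves of the other sites the sum lay between 226 and 451 TPM. In July it ran from 139 to 1666 TPM and in August from 101 to 392 TPM. In late summer it ran from 177 to 1484 TPM, with Hokkaido replicate 1 highest. Genes that are otherwise high in buds were thus present in the June leaf libraries of Hokkaido at a level no other leaf library reached. The files do not show whether the tissue behind these libraries was leaf alone, so the June values of Hokkaido leaves carry that limit. The part of this in the results was not tested. The counts of calls between July and August, between tissues and for their difference, and the time course, are given with and without the Hokkaido trees.

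**Figure D1:**
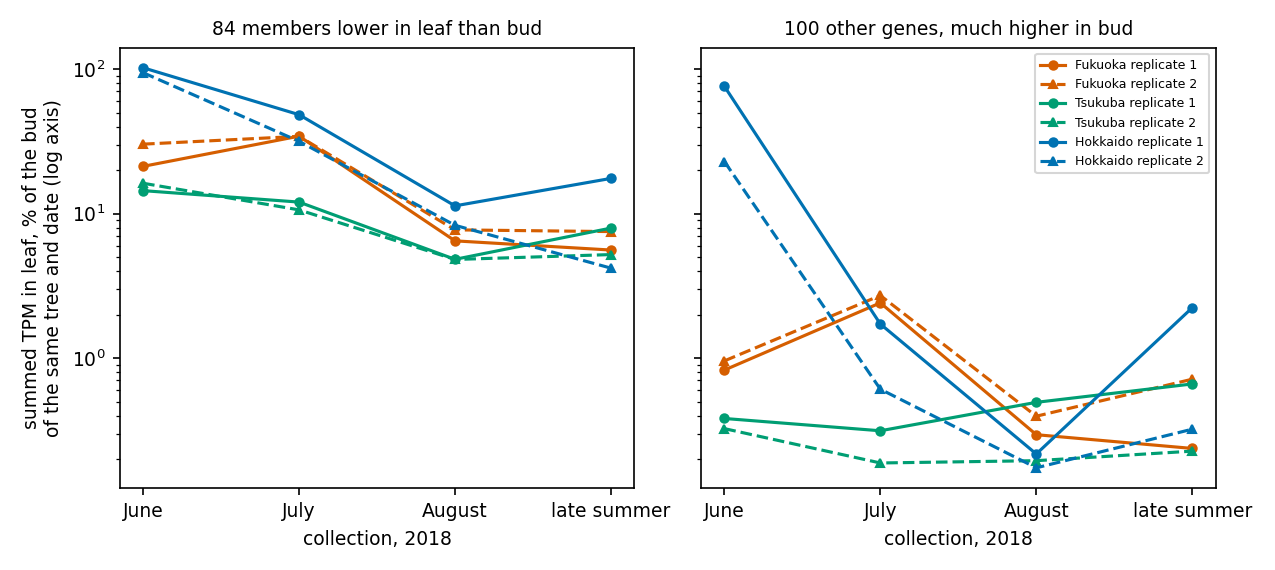
Summed TPM in each leaf library as a percentage of the sum in the bud of the same tree and date (log axis), at the 4 collections, for the 84 listed genes called lower in leaf than bud (left) and for 100 other genes much higher in bud (right). Lines are trees. In June the 84 genes reached 102% and 94.3% of the bud in the Hokkaido trees and 14.4 to 30.2% in the other trees, and the 100 other genes reached 75.9% and 22.9% in the Hokkaido trees.

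Summed, the 150 genes made up a small part of the leaf transcripts, and a smaller one from August on. Their lowest, median and highest share of a library's TPM over the 6 trees was 0.280%, 0.410% and 1.40% in June. In July the shares were 0.208%, 0.339% and 0.783%, in August 0.0628%, 0.124% and 0.223%, and in late summer 0.0447%, 0.0563% and 0.273%. Every tree had a lower share in August than in June or July, and Hokkaido replicate 1 had the highest share on all 4 dates. The median gene stood at 4.10, 3.31, 1.80 and 1.40 on the log2(TPM + 1) scale from June to late summer, while the median over all 35534 genes was 2.88, 2.95, 2.93 and 3.01. In June leaves none of the 150 was listed at 0 in any tree. In late summer leaves between 1 and 41 of them were listed at 0, the fewest in Hokkaido replicate 1 and the most in Hokkaido replicate 2. For 52 of the 150, all 6 late summer leaves lay below all 6 June leaves, which held for 1.24% of all genes tested. This is the contrast that selected the genes, so nothing is read from that count.

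The time course was steepest in the middle of the summer. The median change was -0.85 in log2(TPM + 1) between June and July, -1.51 between July and August, and -0.15 between August and late summer. Over all genes the same medians were 0.07, 0.00 and 0.07. Between June and July 140 of the 150 were lower on the later date, between July and August all 150 were, and in the last interval 105 were. The middle interval held at least 50% of the summer difference for 96 genes, the first interval for 18 and the last for 4, while for 32 no interval held that much. Without both Hokkaido trees the median changes were -0.48, -1.32 and -0.22, and 146 of the 150 were lower in August than in July. The middle interval then held at least 50% of the summer difference for 92 genes, the first for 30 and the last for 4. In the first interval the median change was -1.51 in Hokkaido, -0.30 in Fukuoka and -0.64 in Tsukuba. The first and last intervals each share libraries with the selecting contrast, and only the middle one uses leaves that the selection did not use for the change. The intervals add up to the summer difference, however, so a decrease in the middle one is favoured by the selection too.

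The 2 genes with the lowest summer difference among those with a mean of at least 5 TPM show different courses. CYE_r3.1SPE3_g026120.1 had a lowest, median and highest level of 10.4, 116 and 462 TPM in June leaves. In July leaves the Hokkaido trees had 553 and 323 TPM of it and Fukuoka replicate 1 had 4.74 TPM, and it was listed at 0 in the other 3 trees. In August its highest value was 1.35 TPM, in Hokkaido replicate 1, and 4 of the 6 trees were listed at 0. It was thus low or listed at 0 in July outside Hokkaido, and in August at every site. In late summer it stood at 178 TPM in Hokkaido replicate 1 and was listed at 0 in the other 5 trees. CYE_r3.1SPA3_g025990.1 had a lowest, median and highest level of 8.82, 15.8 and 286 TPM in June, and of 4.24, 16.1 and 41.3 TPM in July. In August these were 0, 0.557 and 3.03 TPM, and in late summer 0, 0.0635 and 7.82 TPM. For this gene every August leaf lay below every June and July leaf, and the tree with the highest late summer value was again Hokkaido replicate 1.

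**Figure D2:**
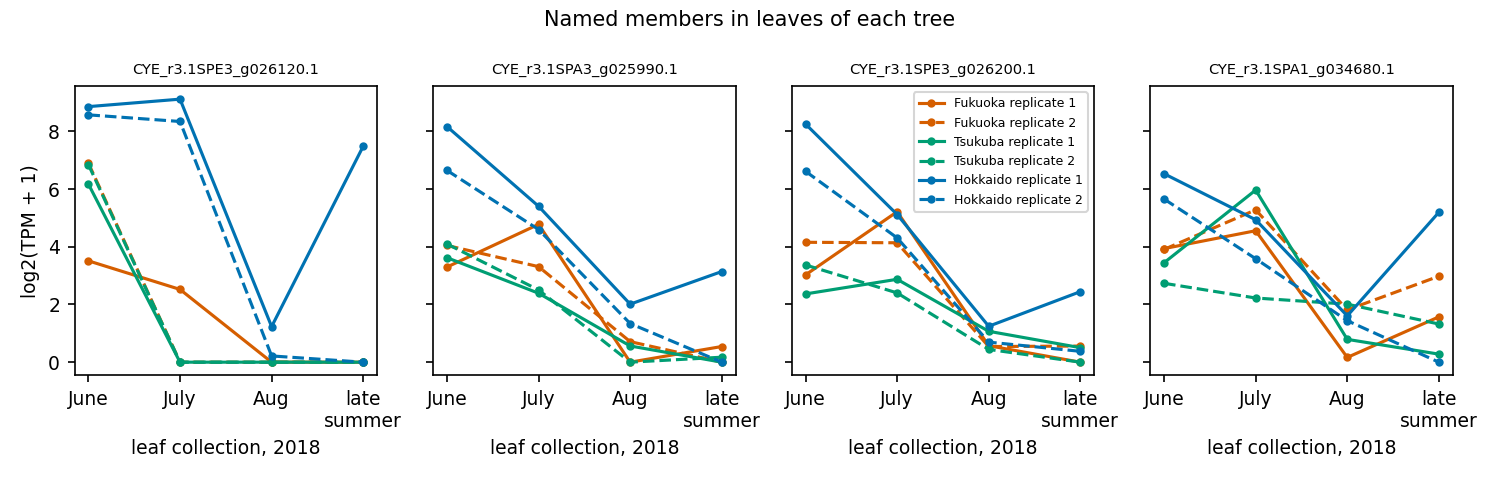
Level of 4 named genes in the leaves of each tree at the 4 collections of 2018, on the log2(TPM + 1) axis shared by the panels. Lines are trees, coloured by site. CYE_r3.1SPE3_g026120.1 was at 323 TPM or more in the July leaves of Hokkaido and at most 4.74 TPM elsewhere, whereas CYE_r3.1SPA3_g025990.1, CYE_r3.1SPE3_g026200.1 and CYE_r3.1SPA1_g034680.1 were at 3.03 TPM or less in all August leaves.

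August leaves were compared with July leaves over all 35534 genes with limma, and a gene was called when its Benjamini-Hochberg adjusted p was under 0.05 and its change at least 1 on the log2(TPM + 1) scale. This scale understates the change of genes near 1 TPM. Of the 150 genes, 113 were called lower in August leaves and 0 higher, against 1.87% of all genes tested that were called lower. The selection over the whole summer favours a decrease in this interval, so the counts given here are partly built in. The fit also took its spread from June and late summer leaves. At an unadjusted p under 0.05, 146 of the 150 were lower, while 23.5% of all genes had such a p in either direction. Among the 37 not called, 28 had a mean change smaller than 1 and 9 had a larger one that missed the adjusted threshold. The 113 called genes changed by -3.25 to -1.0, with a median of -1.68. For 110 of the 150 the August leaf was below the July leaf in all 6 trees, which held for 8.63% of all genes tested. For 21 of them all 6 August leaves lay below all 6 July leaves, against 1.38% of all genes. The median change was -2.01 and -1.68 in the 2 Hokkaido trees, -1.39 and -1.24 in the Fukuoka trees, and -1.17 and -1.06 in the Tsukuba trees.

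The number of calls changed with the trees included. Without both Hokkaido trees 90 genes were called of the 134 that kept a mean of 1 TPM, and 131 of the 134 had a negative mean change. Without the June leaf of Hokkaido replicate 1, 112 genes were called. Leaving out Fukuoka replicate 1 gave 71 calls and Fukuoka replicate 2 gave 64, while Tsukuba replicate 1 gave 54 and Tsukuba replicate 2 gave 69. Leaving out Hokkaido replicate 1 gave 107 and Hokkaido replicate 2 gave 123. Without both Fukuoka trees 45 genes were called. All 150 mean changes stayed negative in each of these Fukuoka and Tsukuba omissions.

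The 2 called genes with the largest decrease that was seen in all 6 trees were followed tree by tree. CYE_r3.1SPE3_g026200.1 averaged 0.732 ± 0.408 TPM in August leaves and 19.3 ± 13.3 TPM in July leaves (SD, n = 6 each). Its August values had a lowest, median and highest of 0.359, 0.552 and 1.37 TPM, against 4.28, 17.7 and 36.1 TPM in July. The groups did not overlap, and the change was -3.25 (SE 0.37, limma adjusted p = 0.000177). CYE_r3.1SPA1_g034680.1 averaged 1.69 ± 1.09 TPM in August leaves and 27.7 ± 20.6 TPM in July leaves (SD, n = 6 each). Its August values had a lowest, median and highest of 0.121, 1.87 and 3.03 TPM, against 3.67, 26.1 and 61.4 TPM in July. Here too the dates did not overlap, although Tsukuba replicate 2 changed least, with 3.03 TPM in August and 3.67 TPM in July. The change was -3.12 (SE 0.74, limma adjusted p = 0.0164). The call on CYE_r3.1SPA1_g034680.1 was lost without Fukuoka replicate 1, Fukuoka replicate 2 or Tsukuba replicate 1, and over all alternatives its change ran from -4.30 to -1.94, with limma adjusted p up to 0.573. It was also lost with a pseudocount of 0.1 and without both Fukuoka trees. The call on CYE_r3.1SPE3_g026200.1 held when any single tree was left out. Both calls were lost with the trees of either replicate number alone. In late summer leaves CYE_r3.1SPA1_g034680.1 was at 35.6 TPM in Hokkaido replicate 1 and listed at 0 in Hokkaido replicate 2.

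Site made a large difference to the level of these genes. In June the median gene stood at 61.9 TPM in Hokkaido, 11.5 TPM in Fukuoka and 8.22 TPM in Tsukuba, taking for each gene the mean TPM of the 2 trees. In July these medians were 21.6, 7.54 and 5.40 TPM, in August 4.38, 2.05 and 1.28 TPM, and in late summer 3.99, 1.65 and 0.894 TPM, in the same order of sites. The order of the sites was the same on all 4 dates, and the distance between them was widest in June. In late summer the 2 Hokkaido trees stood at opposite ends of all trees. Their median gene was at 6.15 TPM in replicate 1 and 0.607 TPM in replicate 2, against 0.751 to 2.08 TPM in the trees of the other sites. The late summer rank of Hokkaido thus rested on replicate 1. Hokkaido was the highest site for 139 of the 150 in June, 113 in July, 114 in August and 107 in late summer. Over all genes Hokkaido was highest for 34.9%, 27.5%, 34.2% and 31.4% on these dates. The median summer difference was -3.61 in Hokkaido, -1.89 in Fukuoka and -1.98 in Tsukuba, and Hokkaido held a median of 48.6% of the summed difference. The selection used the June and late summer values, and the June leaves of Hokkaido also carried the bud genes described above.

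**Figure D3:**
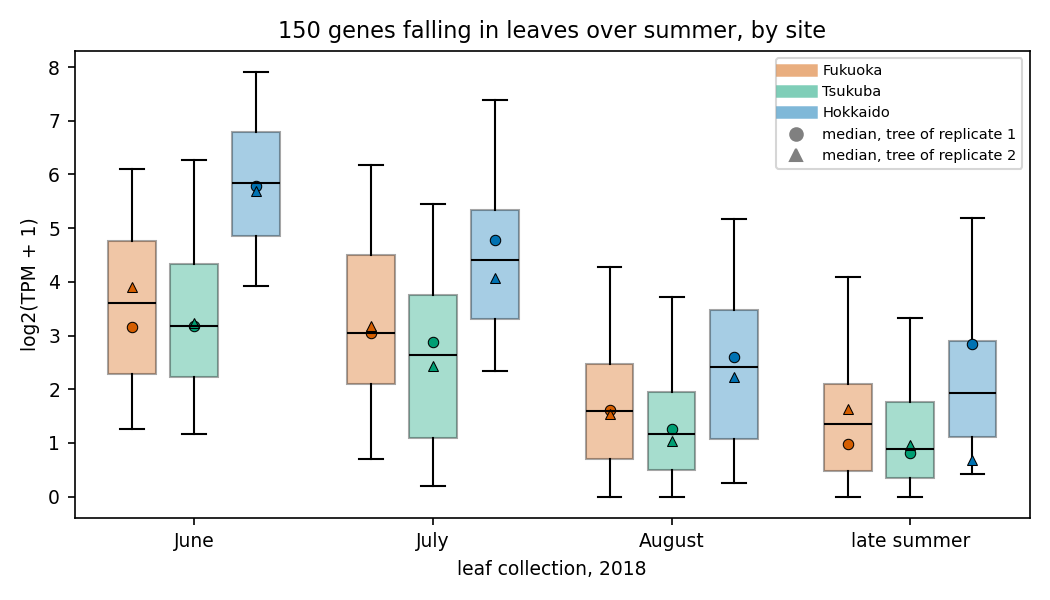
Level of the 150 genes in leaves on the log2(TPM + 1) axis, by collection and site. Boxes show the median and quartiles over genes of the mean of 2 trees, whiskers the 5th and 95th percentile, and points the median gene of each tree. The Hokkaido box is highest on all 4 dates, with a median of 5.85 in June and 1.92 in late summer, against 3.17 and 0.89 in Tsukuba.

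In July and August, dates whose change was not used in the selection, leaf levels were tested between the 3 sites on the means of each tree over both dates. By limma's F test 79 of the 150 genes were called, with an adjusted p under 0.05 and a range of site means of at least 1, against 5.88% of all genes tested. Hokkaido was the highest site for 73 of the 79 and Fukuoka for 6, while among all called genes Hokkaido was highest for 37.6% and Fukuoka for 43.4%. The summer difference that selected the 150 was lowest in Hokkaido for 114 of them. The selection thus favoured genes high in Hokkaido leaves early in summer, so the count for Hokkaido is partly built in. Tsukuba was the lowest site for 57 of the 79 and Fukuoka for 22. The range between the site means had a median of 1.97 on the log2(TPM + 1) scale. With 6 trees the count depended on single trees, and was 32 without Fukuoka replicate 1, 35 without Fukuoka replicate 2 and 51 without Tsukuba replicate 2. Without Hokkaido replicate 1 it was 66, and without Hokkaido replicate 2 it was 65. When genes of any level were fitted, 0 were called, and 96 had an unadjusted p under 0.05. When only genes with a mean of at least 5 TPM were fitted, 76 of 122 were called.

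The widest site range belonged to CYE_r3.1SPE3_g026120.1, with a mean log2(TPM + 1) over July and August of 4.73 in Hokkaido, 0.63 in Fukuoka and 0.00 in Tsukuba (limma F test, adjusted p = 0.00662). CYE_r3.1SPE3_g026140.1 came next, with 3.64 in Hokkaido, 0.35 in Fukuoka and 0.00 in Tsukuba (limma F test, adjusted p = 0.00394). Both IDs are close neighbours by number and shared their pattern tree by tree. CYE_r3.1SPE3_g026140.1 was at 150 and 102 TPM in the July leaves of Hokkaido, at 1.61 TPM in Fukuoka replicate 1, and listed at 0 in the other 3 trees. If the pair are near-identical copies, their separate levels are uncertain, since the sources used here do not say how shared reads were divided.

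The change between July and August was itself tested between sites, and 7 of the 150 genes were called by limma's F test, against 0.780% of all genes tested. In 6 of the 7 the decrease was largest in Hokkaido, and in 1 in Fukuoka. This interval is part of the summer difference, which was lowest in Hokkaido for 114 of the 150. A larger decrease in Hokkaido is thus favoured by the selection. CYE_r3.1SPE7_g004170.1 had a mean change of -4.74 in Hokkaido, -0.13 in Fukuoka and 0.00 in Tsukuba on the log2(TPM + 1) scale (limma F test, adjusted p = 0.0142). It was listed at 0 in all 6 August leaves, against 41.5 and 15.7 TPM in the July leaves of Hokkaido and at most 0.202 TPM in July elsewhere. Outside Hokkaido its leaves held at most 2.97 TPM on any date, so it met the minimum leaf level only through Hokkaido. A change confined to Hokkaido is thus favoured by that minimum. CYE_r3.1SPA5_g001300.1 changed by -4.42 in Hokkaido, -0.44 in Fukuoka and -0.61 in Tsukuba (limma F test, adjusted p = 0.0473). Its levels in Hokkaido were 1.24 and 0.600 TPM in August, against 52.1 and 30.0 TPM in July, and elsewhere it was under 1 TPM on both dates. The call on CYE_r3.1SPE7_g004170.1 was lost without any single tree other than Hokkaido replicate 2, and with a pseudocount of 0.1. That on CYE_r3.1SPA5_g001300.1 was lost whichever tree was left out, and without the June leaf of Hokkaido replicate 1. It was also lost with a pseudocount of 0.1, with no filter and with median scaling. Over all alternatives the ranges of site means ran from 4.07 to 8.00 for the first gene and from 3.73 to 4.13 for the second. The gene with its largest decrease in Fukuoka was CYE_r3.1SPE2_g017340.1, named after its values were seen, with changes of -3.99 in Fukuoka, -1.33 in Tsukuba and -0.36 in Hokkaido (limma F test, adjusted p = 0.0446). In Fukuoka it stood at 2.61 and 4.66 TPM in August, against 78.7 and 63.7 TPM in July. The count of 7 dropped to 1 when any single tree of Fukuoka or Tsukuba was left out, and it was 30 without Hokkaido replicate 2. With the replicate block, which takes each tree as its own control, it was 16. The intervals also differed in length, with 35 days between these dates in Hokkaido, 33 in Tsukuba and 28 in Fukuoka, so site and interval cannot be told apart.

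The genes divided by tissue. On the means of July and August, leaf against bud of the same trees, 84 of the 150 were called lower in leaf, against 18.9% of all genes tested, and 32 were called higher in leaf, against 14.2% (limma, with site as a covariate). The remaining 34 were not called. The median leaf minus bud difference was -2.54 in the 84 genes, 2.45 in the 32 and 0.18 in the 34, and the median over all genes was -0.31. The 84 genes had a median level of 8.07 TPM in leaves and 49.3 TPM in buds. The 32 had a median of 14.0 TPM in leaves and 0.529 TPM in buds. The selection set a minimum for leaf level and a cap on the bud range but no difference between the tissues. It favours a decrease in leaf by August, however, and its minimum held for leaves alone, so neither count is free of it. With a mean of at least 1 TPM required in both tissues, 83 of 118 genes were called lower and 12 higher in leaf. Over all genes 6042 of 32376 were then lower and 3655 higher. With libraries scaled to a common median, 80 genes were called lower and 38 higher in leaf. Over all 35534 genes, 4371 were then lower and 6455 higher. Without both Hokkaido trees, 83 of 134 genes were called lower and 26 higher in leaf, against 5577 and 5431 of all 34911 genes.

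Both groups had lower levels in the leaves of August and late summer than in those of June and July. The sum of the 84 genes was 14.4 to 102% of that in the buds of the same trees in June. It was 10.6 to 48.3% in July, 4.81 to 11.3% in August and 4.19 to 17.5% in late summer. The sum of the 32 genes in leaves ran over the trees from 1151 to 3394 TPM in June and 1159 to 2968 TPM in July, then from 330 to 1246 TPM in August and 143 to 929 TPM in late summer. Between July and August the decrease was called for 63 of the 84, for 22 of the 32 and for 28 of the 34. Of the 32 genes, 20 averaged under 1 TPM in buds, so the decrease in leaves took in genes that buds held at low levels as well as genes that buds held at high levels. The July and August sums of both groups partly follow from how the groups were called.

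CYE_r3.1SPA6_g015590.1 had the most negative leaf minus bud difference of the genes with the same sign in all trees. Its level over July and August had a lowest, median and highest of 0.383, 1.51 and 59.4 TPM in leaves, against 590, 693 and 1154 TPM in buds. The difference was -7.75 (SE 0.36, limma adjusted p = 1.47e-09). In June leaves it stood at 382 and 386 TPM in Hokkaido, in the same libraries in which the 100 bud genes were high, and at 1.20 to 4.12 TPM at the other sites. CYE_r3.1SPA6_g038750.1 had 0.423, 1.79 and 4.11 TPM in leaves, against 70.6, 120 and 207 TPM in buds, with a difference of -5.55 (SE 0.30, limma adjusted p = 5.27e-09). Its June leaves were at 169 TPM in Hokkaido replicate 1 and at most 6.49 TPM in the other trees. For CYE_r3.1SPA6_g038750.1 a single June library thus held most of the leaf signal, and August leaves minus July leaves gave -0.86 (SE 0.58, limma adjusted p = 0.40), which was not called.

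At the other end, CYE_r3.1SPE0_g010440.1 had a lowest, median and highest level over July and August of 244, 308 and 338 TPM in leaves, against 0, 0 and 0.801 TPM in buds. The difference was 7.98 (SE 0.14, limma adjusted p = 2.58e-12). CYE_r3.1SPE0_g148160.1 had 178, 216 and 253 TPM in leaves, against 0, 0 and 0.549 TPM in buds, with a difference of 7.55 (SE 0.13, limma adjusted p = 2.58e-12). Leaf and bud did not overlap for either gene. Both had their lowest median in late summer, and the August minus July changes of -0.74 and -0.76 were not called. CYE_r3.1SPE0_g010440.1 was at 12.2, 52.1 and 336 TPM in late summer leaves (lowest, median and highest), after 107, 235 and 321 TPM in August. The highest late summer value was in Fukuoka replicate 2, the only tree that was not lower in late summer than in August. If the 2 IDs are near-identical copies, their separate levels are uncertain.

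Whether the decrease between July and August differed between leaf and bud was tested in one fit over 48 libraries. For 82 of the 150 genes the change was called more negative in leaf than in bud, against 1.30% of all genes tested, and for 0 the other way round by limma. The difference was negative for 149 of the 150, and 130 of the 150 had an unadjusted p under 0.05, against 20.0% of all genes tested. The median change of the 150 was -1.51 in leaf and -0.06 in bud, and the median over all genes was 0.00 in leaf and -0.02 in bud. The bud changes ran from -1.57 to 0.95, with 91 negative. The selection capped the range of the bud means, which limits how far a bud change can go, so a smaller bud change is partly built in. A decrease in leaf is favoured by the selection as well. The count was 26 when Fukuoka replicate 1 was left out and 40 for Fukuoka replicate 2, and it was 23 for Tsukuba replicate 1 and 29 for Tsukuba replicate 2. Without both Hokkaido trees 65 genes were called, and without both Fukuoka trees 28.

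**Figure D4:**
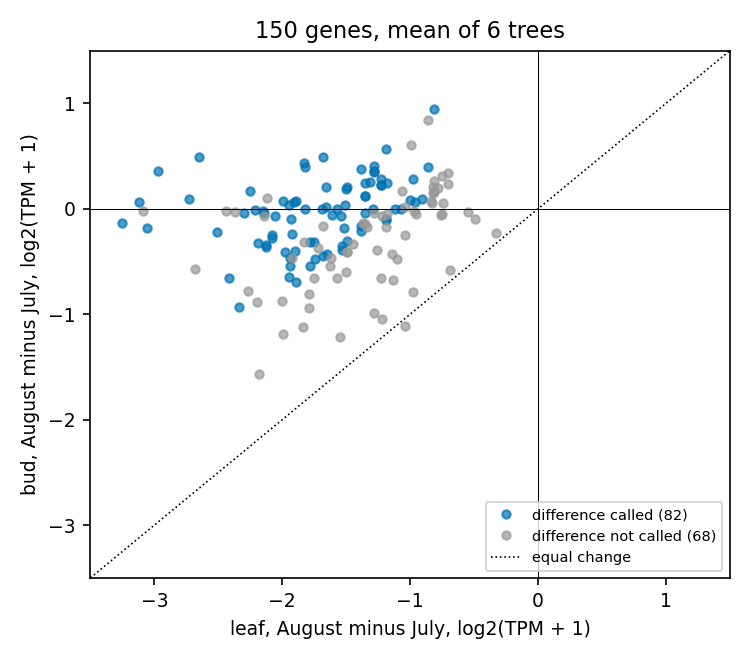
August minus July change in log2(TPM + 1) of the 150 genes, in leaf (horizontal) and in bud (vertical), as means of 6 trees. The dotted line marks equal change, and blue points are the 82 genes whose leaf change was called more negative than their bud change. Leaf changes ran from -3.25 to -0.33 and bud changes from -1.57 to 0.95.

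The largest such difference among genes alike in all trees was that of CYE_r3.1SPE1_g038850.1. In leaves it had a lowest, median and highest level of 1.02, 2.53 and 6.24 TPM in August, against 7.23, 31.1 and 66.3 TPM in July. Its buds were at 22.2 to 73.2 TPM in August, against 10.5 to 82.3 TPM in July. Its leaf change minus bud change was -3.33 (SE 0.91, limma adjusted p = 0.0288). For CYE_r3.1SPA1_g034680.1, described above, the difference was -3.19 (SE 0.87, limma adjusted p = 0.028). Its buds had 18.3 to 49.3 TPM in August and 13.7 to 50.6 TPM in July, so the ranges of the 2 dates overlapped in buds and not in leaves. Both calls were lost when any single tree of Fukuoka or Tsukuba was left out, without both Fukuoka trees and with a pseudocount of 0.1. Over all alternatives the differences stayed at or below -2.83 and -2.50. The courses of the 2 IDs across buds were closely alike, with r = 0.935 over 66 bud libraries that share trees and dates.

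In buds the yearly course of the 150 genes lay within the range the selection allowed, with a median range of 2.02 in log2(TPM + 1). The median gene stood at 4.48 in log2(TPM + 1) in June and 4.32 in July. It was at 3.88 in August, 3.92 in September, 4.06 in October and 3.88 in November. It reached 3.62 in December, 2.85 in January and 3.07 in February, and was at 4.13 in March. Of the 148 genes with any bud value above 0, June was the highest month for 69, against 14.7% of all genes, and March for 35, against 21.3%. Among the 121 with a single lowest month, January was lowest for 55, against 24.0% of all genes with a single lowest month, and February for 24, against 4.08%. The median gene was thus highest in June and lowest in January. From June to late summer, the span over which the leaves were selected, the median bud difference was -0.56, with 122 of the 150 negative and 29 at or below -1. Over all genes the median was -0.10, with 60.6% negative and 4.07% at or below -1. In April minus March the median was 0.46 in Tsukuba and 0.31 in Hokkaido, against -0.19 and -0.13 over all genes. April buds were not used in the selection, but March buds were part of the capped bud range. This contrast is thus not independent of the selection. In Tsukuba 31 of the 150 were higher in April by at least 1 and 3 were lower by at least 1, against 3.48% and 6.32% of all genes. In Hokkaido 16 were higher and 0 lower by that much, against 2.23% and 1.73% of all genes.

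**Figure D5:**
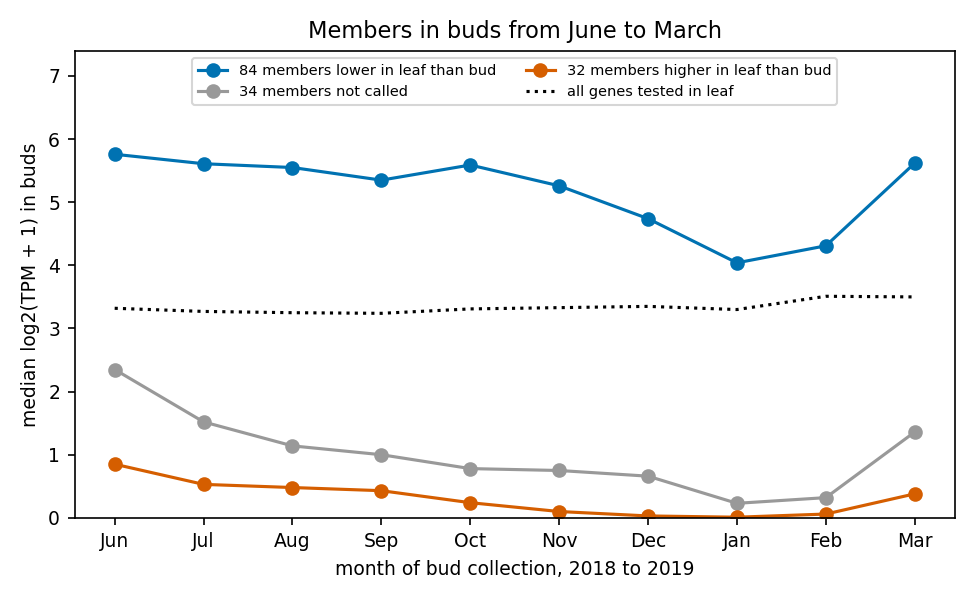
Median level in buds from June to March on the log2(TPM + 1) axis, for the 84 genes called lower in leaf than bud, the 34 not called and the 32 called higher in leaf, with the median of all 35534 genes as a dotted line. All 3 groups are lowest in January, and the 84 genes lie above the median of all genes in every month.

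The 2 listed genes with the highest bud level were CYE_r3.1SPA6_g015590.1 and CYE_r3.1SPE2_g017340.1. CYE_r3.1SPA6_g015590.1 averaged 827 ± 330 TPM in June buds, 207 ± 49.5 TPM in January buds and 380 ± 131 TPM in March buds (SD, n = 6 each). CYE_r3.1SPE2_g017340.1 averaged 355 ± 72.2 TPM in June buds, 229 ± 67.5 TPM in January buds and 354 ± 98.6 TPM in March buds (SD, n = 6 each). The average of the first gene was below its June, July and August averages from September to March, while the second gene had monthly averages on both sides of its June level. At the low end, 30 of the 150 averaged under 1 TPM in buds and 2 were listed at 0 in every bud from June to March.

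The IDs themselves, which the selection did not use, were described as well. The letters SPA stood in 76 of the 150 IDs and SPE in 74, or 50.7% SPA against 52.0% of all genes tested. The digit after the letters was 1 in 20.7% of the 150, against 12.2% of all genes tested. The sources used here do not explain the letters or the digit. Runs of listed IDs whose numbers were at most 100 from the next numbered 11 and held 27 of the 150. The longest run had 5 IDs, from CYE_r3.1SPA0_g099650.1 to CYE_r3.1SPA0_g099770.1, named for its length, and all 5 were called lower in August than in July leaves. For each gene with a digit from 1 to 8, the gene with the most similar course over the 66 bud libraries was looked up. Of 107 such genes, 48 had as best match an ID with the other letters and the same digit, or 44.9%, against 39.0% of all such genes. All 48 matches had a negative summer difference in leaves, 46 of them at or below -1, and 25 were themselves among the 150. Neither these counts nor those of the runs were taken over all genes, so nothing is read from them. If such pairs are copies of a gene, they are not independent, and the 150 IDs stand for fewer genes.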

How the data were processed

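The authors deposited TPM values for 95076 gene IDs in 90 libraries of paired reads of 151 bases. StringTie 1.3.5, STAR 1.5.2 and fastp 0.20.0 are listed, without roles, in the submitters' processing notes. Build and annotation: not given in the sources used here. TPM keeps no sequencing depth, so depth is unknown and no counting interval is given. The treatment of reads that match several copies is unknown as well.

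Tests ran on log2(TPM + 1) in limma 3.58.1 under R 4.3.3, with plain eBayes, and p-values were adjusted by Benjamini-Hochberg over all 35534 genes. A call needed an adjusted p under 0.05 and a change, or range of site means, of at least 1. Fits on leaves had a mean per site and date, averaged over sites with equal weight. Tissue levels and site levels used a mean per tree over July and August. p-values measure the spread between trees, but the main fits held no term for the tree. Libraries or tissue means of the same tree thus counted as separate, except in the test of site levels, with 1 mean per tree. The genes and the lists were chosen with earlier results of these data known. Named genes were, per comparison, up to 2 called genes in each direction with the largest change, at a mean of at least 5 TPM and with the same sign in all 6 trees; for site tests the 2 with the widest range, and for buds the 2 with the highest level.

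Each replicate number stands for a tree that was sampled on all dates, so the design itself pairs the libraries. Differences between the 2 trees per site correlated across genes from leaf date to leaf date with a median r of 0.260 in Fukuoka, 0.197 in Tsukuba and 0.203 in Hokkaido. Fits were tested on simulated data. Alternatives covered pseudocount, filter, scaling, eBayes options, a block for the tree and the omission of trees.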

Additional observations from a re-analysis of the deposited data

Results flagged for a closer look

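The summed level of 100 genes that are much higher in buds than in leaves was 30614 TPM in the June leaf of Hokkaido replicate 1, far above the 226 to 8840 TPM of the other 5 trees. The 8840 TPM was that of Hokkaido replicate 2, and the trees of the other sites had 226 to 451 TPM. In late summer leaves the same tree stood apart with 1484 TPM, against 177 to 503 TPM in the others. Of 19 sets of 6 trees examined for a tree far from the rest, these 2 stood out. Both were examined as sums in TPM, not on the log scale. The rate of about 1 set in 20 by chance holds for a normal spread and need not hold for such sums.

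The change between July and August leaves differed between the sites for 7 of the 150 genes by limma's F test. It differed between leaf and bud for 82 of the 150, all of them more negative in leaf, in a fit over both tissues. The selection capped the bud range, which favours a difference in this direction.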

How the results depend on the processing

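The named genes' tests gave 182 values under the alternatives, of which 143 kept their side of the threshold, 39 missed it and 0 changed sign. Those of the site tests are ranges of site means, for which a change of sign is not possible. All 50 medians over the 150 genes moved by less than the spread between trees. Of 76 counts of calls over all genes, 49 stayed within 1.5 times and 27 moved further. For August minus July, the 839 genes called became 425 when Tsukuba replicate 1 was left out and 353 without both Fukuoka trees. Applying the selection again kept 76 of the 150 genes with a pseudocount of 0.1, and 115 to 135 when 1 tree was left out. Without both Hokkaido trees it kept 70, an alternative chosen after seeing the data, as were the omissions of both Fukuoka trees and of a June leaf. The 113 genes called lower in August than in July leaves became 54 to 123 when 1 tree was left out and 45 without both Fukuoka trees. With the trees of replicate number 1 alone the count was 0 (102 at an unadjusted p under 0.05), and with those of number 2 alone it was 0 (74 unadjusted), in limma fits with 1 tree per site. Of the 150, 43 genes were called in all 6 omissions of a single tree. The 7 calls between sites became 1 with a pseudocount of 0.1, 3 with no filter, 16 with the replicate block and 1 to 30 when 1 tree was left out. The 79 calls on site levels became 0 with no filter and 32 to 66 when 1 tree was left out. The 32 genes higher in leaf became 12 of 118 when a mean of 1 TPM was required in both tissues. Over all genes it was then 3655 of 32376. That filter leaves out genes averaging under 1 TPM in buds. The 82 calls between tissues became 23 to 96 when 1 tree was left out and 28 without both Fukuoka trees. With the replicate block the counts were 118 for August minus July, 84 lower and 30 higher in leaf, and 111 for the difference between tissues. The causes of these shifts were not tested, and depth is unknown.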
